A study of Mus musculus with 45 samples.

Results

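Mouse hippocampal neurons in culture were examined for the mRNAs of 10 genes of glucose uptake, glycolysis and the use of pyruvate and lactate, out of 54532 genes in the count table. The members were the table rows whose Ensembl IDs belong to Slc2a1, Slc2a3, Hk1, Hk2, Pfkfb3, Pfkp, Pfkm, Ldha, Ldhb and Pdk1, and each symbol matched 1 row. All 10 had reads in every library and entered every test.

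The study asked how action potential (AP) firing changes the transcriptome and how signaling through extrasynaptic NMDA receptors (esNMDARs) disturbs that response. RNA was sequenced from 45 libraries in 9 conditions, with 1 library from each of 5 culture preparations, numbered 1, 3, 6, 7 and 8, in every condition. The cultures were made from hippocampi of newborn C57BL/6N mice, were treated with AraC against dividing cells, and received B27 and rat serum, and every condition shares this background. The first 4 conditions followed the response to bicuculline (Bic, 50 µM), a GABA type A receptor antagonist that causes AP firing: no treatment (control) and Bic for 0.5, 1 or 2 h. In the short protocol (SP), an agent was added after 0.5 h of Bic and left for 0.5 h. In the long protocol (LP), it was added after 1 h of Bic and left for 1 h. The agents were tetrodotoxin (TTX, 1 µM), which blocks AP firing, TTX with NMDA (30 µM) in the bath, and, in the LP alone, TBOA (50 µM), a benzyloxy derivative of aspartate that blocks glutamate uptake. Following the terms of the study, TTX against uninterrupted Bic is called the passive effect, TTX/NMDA against TTX the active effect, TTX/NMDA against uninterrupted Bic the total effect and TBOA against uninterrupted Bic the effect of glutamate spillover.

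Neurons take up glucose mainly through SLC2A3 (GLUT3), while SLC2A1 (GLUT1) serves the blood-brain barrier and glia and is present on many other cells. Hexokinases trap glucose as glucose 6-phosphate, phosphofructokinase takes the committed step of glycolysis, and lactate dehydrogenase interconverts pyruvate and lactate. Pyruvate dehydrogenase kinases hold pyruvate back from the mitochondrial pyruvate dehydrogenase complex. Several of these genes are known targets of the hypoxia-inducible factor HIF-1, and glucose use in neurons rises with firing.

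The libraries held 11316580 to 81129276 counted reads each. Neuronal markers were abundant throughout, with the summed level of 8 neuron genes between 6437 and 8558 CPM (reads of a gene relative to library size, corrected by the trimmed mean of M-values, TMM). Astrocyte markers were present in all libraries. Endothelial Cldn5 had a median of 0, and Cldn5, microglial P2ry12, oligodendrocyte Sox10, endothelial Tek and mural Kcnj8 were at 0 in at least 1 library each. The summed level of 6 activity-induced genes (Fos, Arc, Npas4, Egr1, Nr4a1 and Bdnf) lay between 295 and 452 CPM in the control and between 5739.7 and 8220.5 CPM after 2 h Bic, with no overlap.

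The main response of the glucose genes came at the point of entry. After 2 h Bic the transporters Slc2a1 and Slc2a3 were 3.01-fold and 2.65-fold higher than in the control and Pfkfb3 was 1.69-fold higher, while the hexokinases, phosphofructokinases, lactate dehydrogenases and Pdk1 did not pass the main test, which treats libraries as unpaired. With culture preparation as a block, Hk2, Pfkp, Pfkm and Ldhb passed as well, with smaller changes. That fit called 2195 of 15269 genes higher and 2284 lower. When TTX was added at the midpoint of the LP, no member passed the main test against uninterrupted Bic. With the block 5 were lower, as were 2528 of 15570 genes tested. When NMDA was present with TTX, 6 of the 10 genes were lower than with TTX alone, against 11.8% of all genes tested. Ldhb alone was higher, against 11.6%. With genes of low count removed before the test, the member counts were the same, and 3736 of 16399 genes were lower and 4090 higher.

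The promoters of 3 members are shown because these genes differed in their responses: Slc2a1 and Pfkfb3 rose with Bic and Ldha did not pass the main test in any comparison. With preparation as a block, Ldha passed between 1 and 2 h Bic (higher) and in the LP active and total effects (lower). The letters are RefSeq's for GRCm38.p6, written from 5′ to 3′ on the gene's strand and ending at the listed start or at the first exon base of the gene in GENCODE vM21, and capitals mark ACGTG or GCGTG (forms of the HIF-1 binding core) and TGACG or TGACGTCA (short and full forms of the cAMP response element, bound by CREB) on either strand. The Slc2a1 window is chr4:119108495-119108710 on the plus strand, the Pfkfb3 window, at the second of the listed starts, is chr2:11502102-11502340 on the minus strand, and the Ldha window, at the first of the listed starts, is chr7:46845554-46845803 on the plus strand.
Slc2a1: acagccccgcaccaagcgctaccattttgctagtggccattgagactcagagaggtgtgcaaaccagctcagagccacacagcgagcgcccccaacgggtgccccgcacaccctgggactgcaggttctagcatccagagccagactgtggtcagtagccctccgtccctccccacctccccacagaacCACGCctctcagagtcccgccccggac
Pfkfb3: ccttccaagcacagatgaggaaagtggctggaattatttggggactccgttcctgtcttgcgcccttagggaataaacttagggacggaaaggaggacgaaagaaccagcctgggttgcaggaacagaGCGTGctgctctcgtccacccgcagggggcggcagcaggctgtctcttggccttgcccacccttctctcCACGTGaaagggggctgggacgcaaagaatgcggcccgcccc
Ldha: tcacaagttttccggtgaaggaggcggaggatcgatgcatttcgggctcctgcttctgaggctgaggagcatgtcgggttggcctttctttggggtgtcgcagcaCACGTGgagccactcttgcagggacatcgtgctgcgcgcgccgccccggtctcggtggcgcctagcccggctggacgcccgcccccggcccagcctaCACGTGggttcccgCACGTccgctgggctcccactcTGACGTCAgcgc
The Slc2a1 window held 1 match, to GCGTG, and none to the cAMP response element letters. Pfkfb3 held 1 GCGTG and a palindromic CACGTG, which counts as ACGTG on both strands. Ldha held CACGTG in 2 places, a further ACGTG and 1 full TGACGTCA. The printed windows stop short of exon bases for Slc2a1 and Pfkfb3, and the full 250 bases of these starts hold 1 further ACGTG for Slc2a1 and 1 TGACG for Pfkfb3. The first listed start of Pfkfb3, not printed, held 1 ACGTG and 2 TGACG in 250 bases, of which 148 lie in exons. The second listed start of Ldha, not printed, held 1 GCGTG and 1 TGACG. Among 32536 windows of 250 bases before RefSeq starts, the length to set beside the full windows, ACGTG occurred in 16.7%, GCGTG in 28.3%, TGACG in 17.9%, TGACGTCA in 1.56% and CACGTG in 6.04%. These matches are letters in a window and no binding was measured. Of the 10 members, 9 had a listed promoter and Slc2a3 had none.

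Before any treatment the 10 mRNAs differed widely in abundance per length. The length used joins all annotated exons of a gene, 13401 bases for Pfkp and 3340 for Pfkm, and the mRNA present can be shorter. The order below depends on this length. On the scale of CPM per kilobase of annotated exon, Ldha (lactate dehydrogenase A; ENSMUSG00000063229, chr7:46841475-46855627, plus strand) was highest in the control at 166 ± 35.2 (SD, n = 5 libraries). It was followed by Pfkm (the muscle-type phosphofructokinase; ENSMUSG00000033065, chr15:98092589-98132451, plus strand) at 101 ± 3.95 and Ldhb (lactate dehydrogenase B; ENSMUSG00000030246, chr6:142490249-142507957, minus strand) at 92.7 ± 10.4, and the ranges of Pfkm and Ldhb overlapped. Hk1 (hexokinase 1, the main brain hexokinase; ENSMUSG00000037012, chr10:62268855-62379908, minus strand) stood at 59.99 ± 5.53. Slc2a3 (ENSMUSG00000003153, chr6:122727809-122801640, minus strand) at 30.7 ± 1.70 and Pfkp (the platelet-type phosphofructokinase; ENSMUSG00000021196, chr13:6579768-6648777, minus strand) at 28.1 ± 1.77 overlapped as well. Pdk1 (pyruvate dehydrogenase kinase 1; ENSMUSG00000006494, chr2:71873224-71903858, plus strand) followed at 12.2 ± 1.73. Slc2a1 (ENSMUSG00000028645, chr4:119108711-119137983, plus strand) was at 6.58 ± 1.10. Pfkfb3 (which makes fructose 2,6-bisphosphate, the activator of phosphofructokinase; ENSMUSG00000026773, chr2:11471433-11554077, minus strand) was at 4.16 ± 0.553. Hk2 (the inducible hexokinase 2; ENSMUSG00000000628, chr6:82725025-82774454, minus strand) was lowest at 1.93 ± 0.599. All other neighbours in this order did not overlap. Coordinates are those of GENCODE vM21 on GRCm38, the build the authors used. An exon of Pfkm overlaps an exon of Gm26513 on the same strand, and reads there were not counted by the authors.

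**Figure D1:**
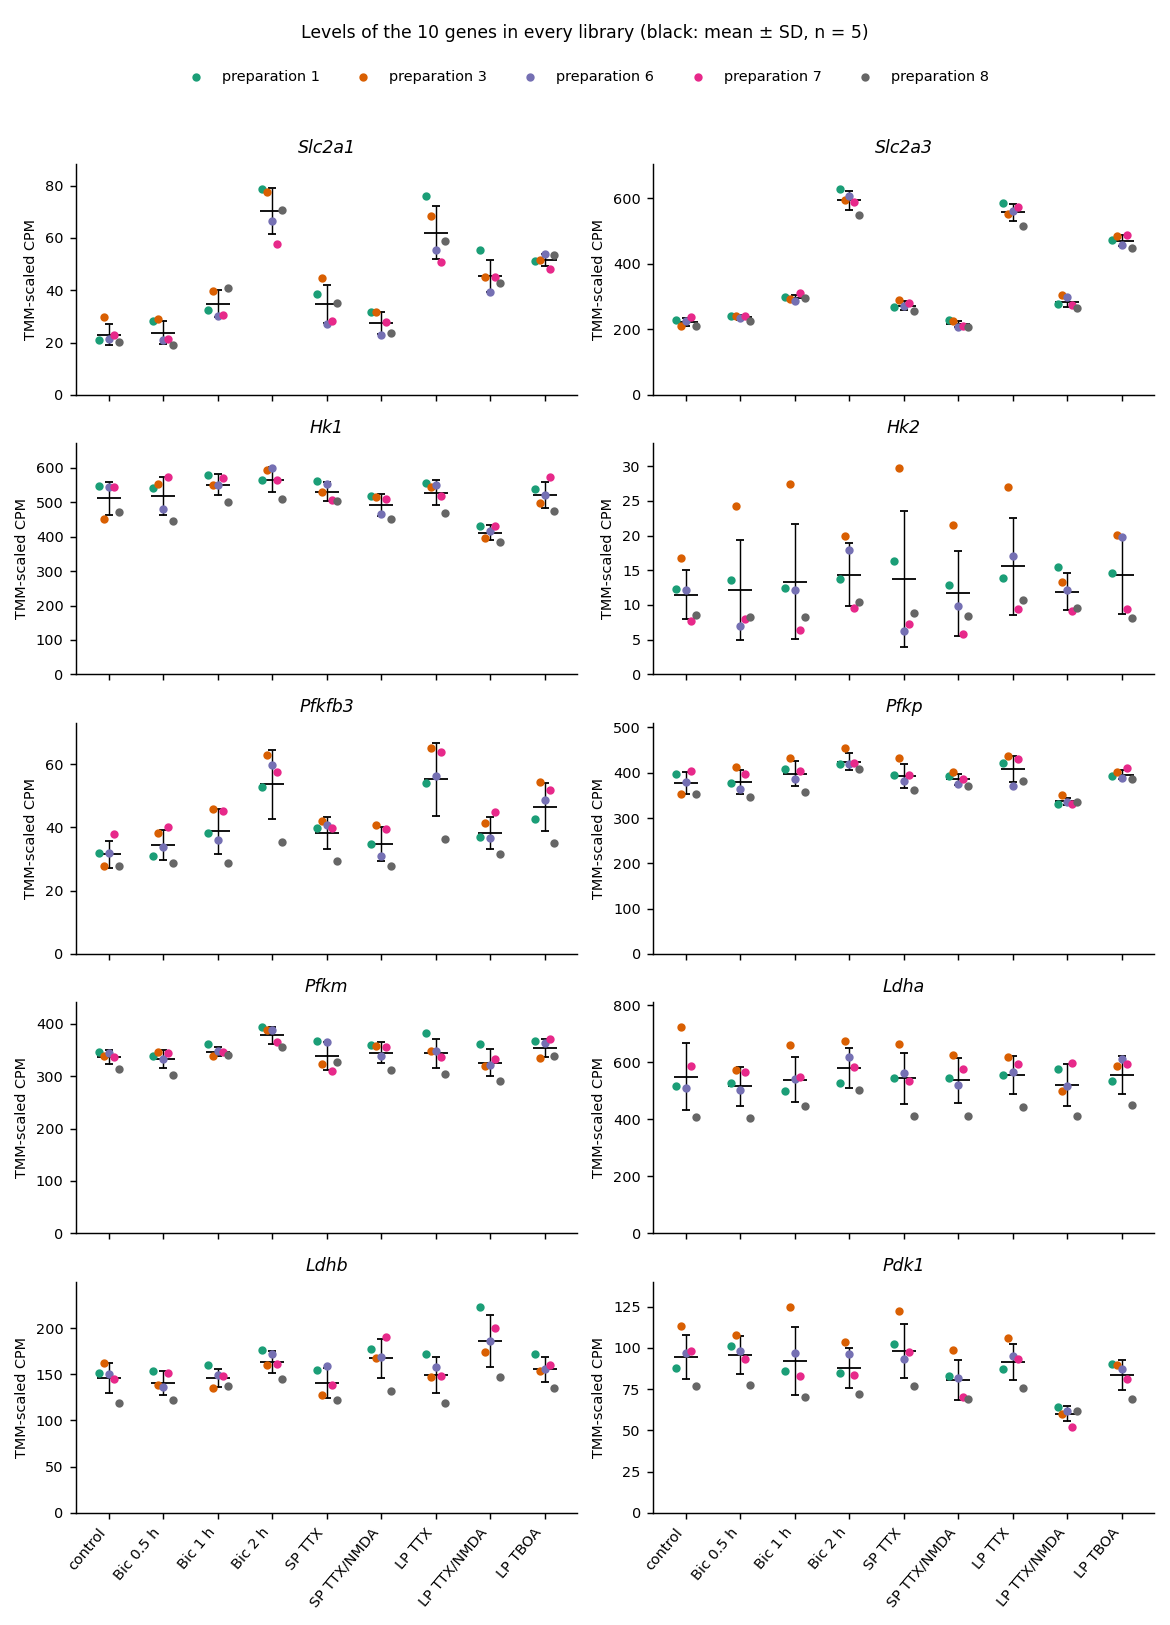
TMM-scaled CPM (y axes, linear, starting at 0) of each gene in each of the 9 conditions (x axis), with 1 coloured point per library by culture preparation and black bars for the mean ± SD of 5 libraries. Slc2a1 rises from 23.1 in the control to 70.3 after 2 h Bic and Slc2a3 from 223 to 595, Pdk1 is lowest in LP TTX/NMDA, and Ldha is lowest in preparation 8 in every condition.

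The transporters led the response to firing, and Slc2a3 did so with little spread between preparations. Slc2a3 was at 228, 209, 225, 239 and 212 CPM in preparations 1, 3, 6, 7 and 8 of the control, in that order. After 1 h Bic it was at 300.3, 293, 287, 311 and 296, and after 2 h at 630.0, 595, 608, 589.9 and 551. Every library of each later time lay above every library of the one before among these 3 groups, and the test found a rise at 1 h (log2 fold change 0.41, SE 0.08, adjusted p = 0.000563; quasi-likelihood test of edgeR, p adjusted by Benjamini and Hochberg), at 2 h (log2 fold change 1.41, SE 0.08, adjusted p = 1.05e-16) and between 1 and 2 h (log2 fold change 0.99, SE 0.06, adjusted p = 7.99e-15). Slc2a1 was at 21.1, 29.7, 21.3, 22.98 and 20.3 CPM in the control libraries. It was at 32.3, 39.8, 30.2, 30.6 and 40.9 after 1 h and at 78.8, 77.7, 66.5, 57.5 and 70.8 after 2 h, again without overlap between these groups. Preparation 3 was the highest of the controls for Slc2a1, well above the other 4. The rise of Slc2a1 passed the test at 1 h (log2 fold change 0.58, SE 0.10, adjusted p = 0.000237), at 2 h (log2 fold change 1.59, SE 0.10, adjusted p = 3.98e-15) and between them (log2 fold change 1.01, SE 0.09, adjusted p = 9.49e-11). In bulk RNA, a change in the number of cells of one type cannot be told apart from a change in RNA per cell, here and in the results that follow.

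Pfkfb3 was the only enzyme among the 10 that rose with Bic in the main test. Its level was 32.03, 27.7, 31.9, 37.9 and 27.7 CPM in the control and 52.8, 63.00, 59.7, 57.4 and 35.3 after 2 h Bic. It was higher in all 5 preparations, but the groups overlapped, since the 2 h library of preparation 8 lay within the range of the controls. The rise was 0.75 on the log2 scale at 2 h (SE 0.11, adjusted p = 3.65e-06) and 0.46 between 1 and 2 h (adjusted p = 0.00554, which became 0.0525 when genes with low counts were removed before the test).

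After 0.5 h Bic, 0 of the 10 genes passed the test, 0 had an unadjusted p under 0.05, and DESeq2 called 0. Of all genes tested, 0.289% were called higher and 0% lower at that time. After 1 h, 2 members were higher against 0.965% of all genes, and 0 were lower against 0.195%. With preparation as a block over all genes with a read, Pfkfb3 also passed at 1 h (0.29, adjusted p = 0.00228). That fit called 806 of 30765 genes higher and 409 lower, and with a filter on low counts Pfkfb3 did not pass. After 2 h, 3 were higher against 4.24%, and 0 lower against 4.78%. From 1 to 2 h, 3 were higher against 2.53% and 0 lower against 2.8%. Of 13592 genes with a mean of at least 1 CPM, 325 were called at 1 h, in either direction. The same count was 2528 at 2 h and 1570 from 1 to 2 h. With the culture preparation as a block in the fit, over genes passing a filter on low counts, 29.3% of genes were called at 2 h. Of these 15269 genes, 2195 were higher and 2284 lower. In that fit 7 members were higher, with the addition of Hk2 (adjusted p = 0.00682), Pfkp (0.0405), Pfkm (0.0208) and Ldhb (0.0476). Their log2 fold changes lay between 0.15 and 0.32. Between 1 and 2 h the blocked fit called 23.5% of genes, with 1686 of 15330 higher and 1921 lower. It called 6 members, all higher, adding Pfkm (0.0169), Ldha (0.044) and Ldhb (0.00345).

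**Figure D2:**
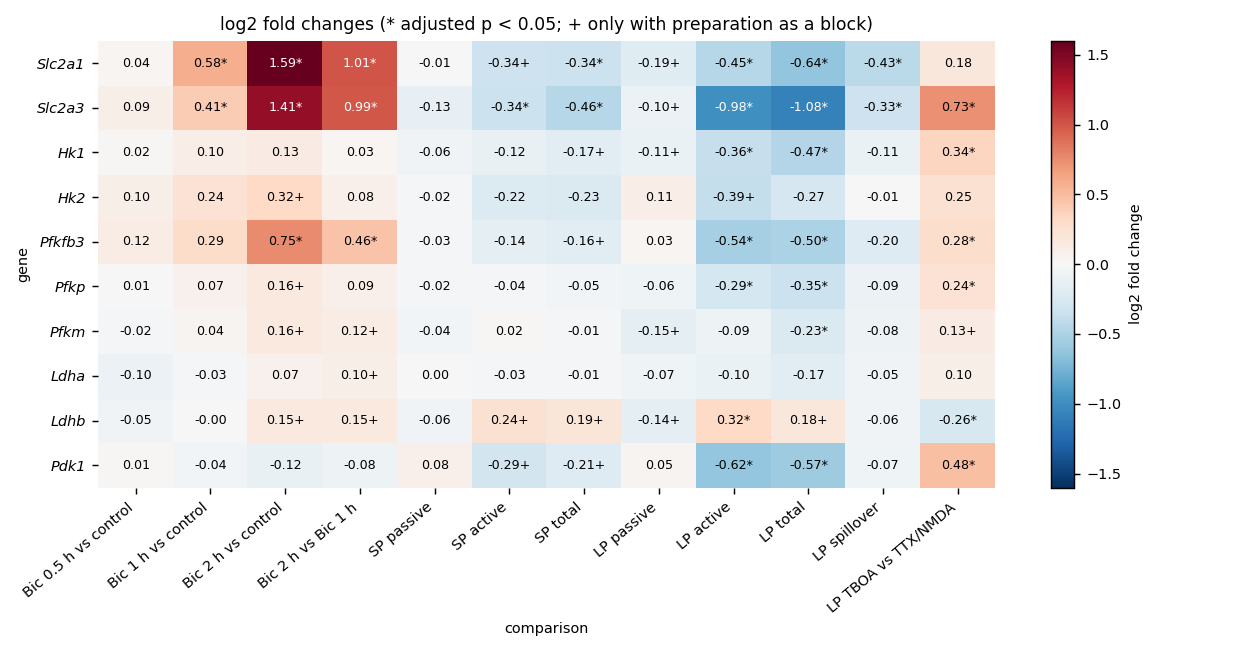
Log2 fold changes (colour and printed value) of the 10 genes (rows) in the 12 comparisons (columns), with an asterisk for an adjusted p under 0.05 in the main test and a plus where only the fit with preparation as a block passes. The transporters carry the largest values, 1.59 for Slc2a1 and 1.41 for Slc2a3 after 2 h Bic and -1.08 for Slc2a3 in the LP total effect.

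After AP firing was stopped with TTX, no member passed the main test against uninterrupted Bic. In the SP, Slc2a3 was at 273 ± 12.96 CPM with TTX and 297 ± 8.91 with 1 h Bic (SD, n = 5), and Slc2a1 at 34.7 ± 7.36 and 34.8 ± 5.16. None of the 10 passed the test of the SP passive effect, 0 had an unadjusted p under 0.05, DESeq2 called 0, and 0.0157% of all genes were called higher and 0.252% lower. The log2 fold changes of the 10 lay between -0.13 for Slc2a3 and 0.08 for Pdk1. In the LP, Slc2a3 was at 585, 553, 562, 573 and 517 CPM with TTX and Slc2a1 at 76.2, 68.4, 55.6, 50.9 and 58.99. These libraries lay above every library of 1 h Bic, the time when TTX was added, for both transporters. Expressed for each preparation as a share of the rise from control to 2 h Bic, LP TTX held 90.3% ± 2.92 (SD, n = 5) of the rise of Slc2a3 and 81.8% ± 7.92 of that of Slc2a1. For Pfkfb3 the share was 109.8% ± 16.5. Against 2 h Bic, 0 of 10 members passed the main test in the LP, 2 had an unadjusted p under 0.05 and DESeq2 called 0, with 3.03% of all genes higher and 1.62% lower. The blocked fit called 32% of genes, with 2450 of 15570 higher and 2528 lower, and 5 members, all lower. These were Slc2a1 (log2 fold change -0.20, adjusted p = 0.00177), Slc2a3 (-0.11, 0.028), Hk1 (-0.12, 0.0213), Pfkm (-0.16, 0.00468) and Ldhb (-0.16, 0.00877). The log2 fold changes of Hk2, Pfkfb3, Pfkp, Ldha and Pdk1 lay between -0.07 for Ldha and 0.11 for Hk2 without the block, and these genes passed in neither fit.

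With NMDA in the bath, Slc2a3 was far below its level with TTX alone. In the LP it was at 279, 305, 299.6, 274 and 267 CPM with TTX/NMDA, and every one of these libraries lay below every LP TTX library. The active effect was a fall by 0.98 on the log2 scale (-0.98, SE 0.06, adjusted p = 1.28e-12), and the total effect was -1.08 (SE 0.07, adjusted p = 2.24e-14). LP TTX/NMDA held 16.6% ± 5.91 of the rise of Slc2a3. That level overlapped with the level at 1 h Bic, when NMDA was added, and lay above it in 2 preparations and below it in 3. Slc2a1 was at 55.3, 44.98, 39.2, 45.1 and 42.7 CPM with TTX/NMDA. Its active effect passed as well (log2 fold change -0.45, SE 0.09, adjusted p = 0.000466), the libraries with and without NMDA overlapped, and 47.8% ± 13.5 of its rise was held. It lay above the level at 1 h Bic in all 5 preparations, with overlap between the groups. Pfkfb3 was at 36.8, 41.4, 36.7, 44.99 and 31.6 CPM and held 33.2% ± 13.04 of its rise (active effect log2 fold change -0.54, SE 0.11, adjusted p = 0.000408).

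**Figure D3:**
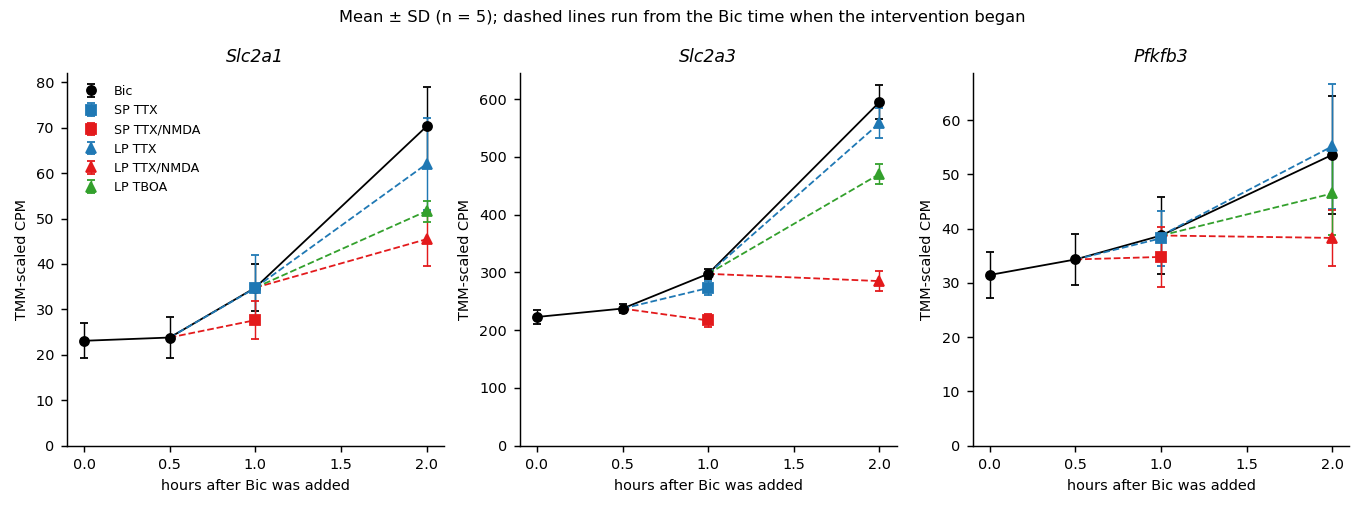
Mean TMM-scaled CPM (y axes, linear, starting at 0) of Slc2a1, Slc2a3 and Pfkfb3 against hours after Bic was added (x axis), with bars for the SD of 5 libraries. Dashed lines join each intervention to the Bic time at which it began: for Slc2a3, LP TTX ends at 558, LP TBOA at 470.2 and LP TTX/NMDA at 285.

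Pdk1, Hk1 and Pfkp, which did not pass the main test after 2 h Bic, were also lower with NMDA. Pdk1 was at 87.2, 106, 95.3, 93.1 and 75.7 CPM in LP TTX and 64.2, 60.1, 62.01, 52.3 and 61.6 in LP TTX/NMDA. All 5 LP TTX/NMDA libraries lay below the lowest of the 40 others, which was 68.9 CPM, and the spread between preparations was the narrowest of the 9 conditions. The active effect on Pdk1 was -0.62 (SE 0.08, adjusted p = 4.05e-07). Hk1 was at 412 ± 21.1 CPM against 528 ± 36.1 in LP TTX, without overlap (log2 fold change -0.36, SE 0.07, adjusted p = 9.62e-05). Pfkp was at 337 ± 8.44 against 408 ± 29.6, also without overlap (log2 fold change -0.29, SE 0.06, adjusted p = 0.0011). Pfkm, the partner isozyme of Pfkp, was at 325 ± 25.6 against 344 ± 27.6 (adjusted p = 0.413). In the total effect Pfkm fell by 0.23 on the log2 scale (adjusted p = 0.0124), and this call was lost without preparation 3 (adjusted p = 0.0954) or 6 (0.0695). Ldha, the most abundant of the 10 per length in the control, was at 519.5 ± 73.6 CPM against 555 ± 66.8 (adjusted p = 0.43).

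Ldhb moved the other way. It was at 171, 147, 158, 149 and 118 CPM in LP TTX and 223, 174, 186, 200.4 and 147 in LP TTX/NMDA. It was higher with NMDA in each of the 5 preparations, although the groups overlapped (log2 fold change 0.32, SE 0.09, adjusted p = 0.0101). Hk2, at 11.9 ± 2.63 against 15.6 ± 7.00 CPM, had a wide spread between preparations and did not pass the main test (log2 fold change -0.39, adjusted p = 0.143). In all, 6 members were lower in the LP active effect, against 11.8% of all genes, and 1 higher, against 11.6%. In the LP total effect, against 2 h Bic, the log2 fold changes of the others that passed were -0.64 for Slc2a1 (adjusted p = 4.75e-07), -0.57 for Pdk1 (1.41e-06), -0.50 for Pfkfb3 (0.000451), -0.47 for Hk1 (1.92e-06) and -0.35 for Pfkp (6.28e-05). In that effect 7 were lower against 11.1%, and 0 higher against 11.7%. With genes of low count removed before the test, 3736 of 16399 genes were lower and 4090 higher in the active effect. In the total effect 3486 of 15947 were then lower and 3940 higher, and the member counts were unchanged in both. The median log2 fold change of the 10 was -0.38 in the active effect, beside -0.01 over 13592 genes with a mean of at least 1 CPM and 0.11 over all genes tested. The blocked fit called 62.1% of genes in the active effect and added Hk2 (adjusted p = 0.029). It called 56.6% in the total effect and added Ldhb as higher (adjusted p = 0.00954). With the block over all genes with a read, Ldha passed as lower in the active effect (-0.11, adjusted p = 0.037) and in the total effect (-0.18, 0.00262). That fit called 9 members in the active effect, with 5290 of 32852 genes higher and 4997 lower. In the total effect it called 10, with 4769 of 32243 genes higher and 4324 lower.

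Markers of other cells moved together with these results in LP TTX/NMDA. In the active effect, 7 of 8 astrocyte markers were higher and 1 lower, 4 of 8 oligodendrocyte lineage markers, 5 of 6 mural and fibroblast markers, 2 of 6 microglia markers and 1 of 6 endothelial markers were higher, and 3 of 8 neuron markers were lower. The summed astrocyte markers ranged from 999 to 1494 CPM in LP TTX and from 1188 to 2043 CPM in LP TTX/NMDA. In the same order of groups, summed oligodendrocyte lineage markers ranged from 99.5 to 168 CPM and 156 to 312 CPM, and mural and fibroblast markers from 68.5 to 110.4 CPM and 88.6 to 163 CPM. Microglia markers summed to 5.36 to 7.36 CPM and 6.28 to 8.76 CPM, and endothelial markers to 2.84 to 5.19 CPM and 3.27 to 7.17 CPM. Summed neuron markers ranged from 7676 to 8558 CPM and 6674 to 7263 CPM, without overlap. In the total effect 6 of 8 astrocyte markers were higher and 1 lower, and 3 of 8 neuron markers were lower and 1 higher. The part of these shifts in the changes of the 10 genes was not tested.

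In the SP, Slc2a3 was the member that passed the test of the active effect. Slc2a3 was at 269, 289.9, 271, 279 and 255 CPM with TTX and 229.5, 226, 207, 211 and 209 with TTX/NMDA, without overlap (log2 fold change -0.34, SE 0.06, adjusted p = 0.000575). With TTX/NMDA it lay below the 0.5 h Bic level, at which NMDA was added, in 5 of 5 preparations, and its range overlapped that of the controls. Slc2a1 was at 27.6 ± 4.17 with TTX/NMDA against 34.7 ± 7.36 with TTX, lower in all 5 preparations, and missed the threshold for the active effect (adjusted p = 0.069). Its total effect passed (log2 fold change -0.34, SE 0.10, adjusted p = 0.031), as did that of Slc2a3 (log2 fold change -0.46, SE 0.06, adjusted p = 2.21e-06). The call on Slc2a1 was lost without preparation 8 (adjusted p = 0.110), with a filter on low counts (0.0770), with no filter (0.0538) and in a fit of all 45 libraries (0.130). In the SP active effect 1 member was lower against 3.32% of all genes and 0 higher against 0.956%. In the total effect 2 were lower against 3.41% and 0 higher against 0.891%. Among 13592 genes with a mean of at least 1 CPM, 1296 were called in the active effect and 1275 in the total effect, in either direction. Summed astrocyte markers ranged from 1042 to 1587 CPM in SP TTX and from 913 to 1372 CPM in SP TTX/NMDA, and of the 8 markers 1 was lower in the active effect and 2, Sox9 and Slc1a2, in the total effect, with 0 higher. Of 8 neuron markers 2 were lower and 1 higher in the active effect, and 2, Map2 and Slc17a7, were lower in the total effect. Of 6 mural and fibroblast markers, 1, Rgs5, was higher in the total effect, and the microglia, oligodendrocyte lineage and endothelial lists had 0 called in both. The part of these shifts was not tested.

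With preparation as a block, 16.2% of genes were called in the SP active effect and 4 members, adding Slc2a1 (adjusted p = 0.0185) and Pdk1 (0.00833) as lower and Ldhb (0.018) as higher. Ldhb was higher and Pdk1 lower in each of the 5 preparations, the directions these genes had in the LP. In the total effect the blocked fit called 27.3% of genes and 6 members, adding Hk1 (0.00555), Pfkfb3 (0.018) and Pdk1 (0.00912) as lower and Ldhb (0.0221) as higher. The difference between the LP and SP active effects was tested as an interaction, which called 2.57% of all genes and 1 member. Slc2a3 fell further in the LP, by 0.62 more on the log2 scale (interaction -0.62, SE 0.08, adjusted p = 2.66e-06). In the blocked fit, which called 25%, the interaction also passed for Hk1, Pfkfb3, Pfkp and Pdk1, with adjusted p between 0.00382 and 0.0374. For the passive effect the interaction called 0.256% of genes and 0 members, with 0 at an unadjusted p under 0.05 and 0 by DESeq2.

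With glutamate spillover the transporters were lower, and none of the 8 enzymes passed the main test. With TBOA, Slc2a3 was at 472, 485, 457, 488 and 449 CPM, below all 2 h Bic libraries (log2 fold change -0.33, SE 0.06, adjusted p = 0.00148). Slc2a1 was at 51.2, 51.4, 53.9, 48.1 and 53.6 CPM, also below all of them (log2 fold change -0.43, SE 0.07, adjusted p = 0.000621). The call on Slc2a1 was lost in a fit of all 45 libraries (adjusted p = 0.123). TBOA held 66.7% ± 5.55 of the rise of Slc2a3 and 61.6% ± 12.3 of that of Slc2a1. These 2 genes were the members called lower, against 0.549% of all genes, and 0 were higher against 0.0536%. Among 13592 genes with a mean of at least 1 CPM, 186 were called in either direction. Among the 8 enzymes the log2 fold changes lay between -0.20 for Pfkfb3 (adjusted p = 0.648) and -0.01 for Hk2. With preparation as a block over all genes with a read, Pfkfb3 passed as lower (-0.18, adjusted p = 0.0382). That fit called 355 of 31706 genes higher and 705 lower. With the block and a filter on low counts, Pfkfb3 did not pass.

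TBOA and TTX/NMDA were then compared directly. With TBOA, Slc2a3 was higher (log2 fold change 0.73, SE 0.07, adjusted p = 4.96e-10), as were Pdk1 (log2 fold change 0.48, SE 0.08, adjusted p = 1.43e-05) and Hk1 (log2 fold change 0.34, SE 0.07, adjusted p = 0.000591). Pfkp (0.24, adjusted p = 0.00951) and Pfkfb3 (0.28, adjusted p = 0.0373) were higher and Ldhb was lower (-0.26, adjusted p = 0.0309). Slc2a1 differed by 0.18 (adjusted p = 0.114), which did not pass. In all, 5 members were higher against 7.99% of genes and 1 lower against 8.6%. Among 13592 genes with a mean of at least 1 CPM, 4536 were called in either direction. The calls on Pfkfb3, Ldhb and Pfkp were lost in some alternatives: Pfkfb3 without preparation 1, 3 or 6 (adjusted p up to 0.116), Ldhb without preparation 6 or 7 (up to 0.0661) and Pfkp without preparation 7 (0.0515). Pfkfb3 was also lost with DESeq2 (0.0638), with a filter on low counts (0.0828), with no filter (0.0622) and in a fit of all 45 libraries (0.188). Ldhb was also lost with DESeq2 (0.0669), with a filter on low counts (0.0502) and with no filter (0.0516). Slc2a1 passed without preparation 1 (0.0314) and with preparation as a block over all genes with a read (0.0140), but not with the block and a filter on low counts (0.0676). The blocked fit called 47.4% of genes and added Pfkm as higher (adjusted p = 0.0458). The astrocyte markers, of which 6 of 8 were lower and 1 higher with TBOA, moved here as well, with summed levels from 1205 to 1491 CPM. With TBOA 4 of 6 mural and fibroblast markers, 3 of 8 oligodendrocyte lineage markers, 1 of 6 microglia markers and 1 of 6 endothelial markers were lower, and 2 of 8 neuron markers were higher and 1 lower. Their part in the result was not tested.

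The ratio of isozyme reads within a library does not depend on scaling between libraries. Of both hexokinases, Hk1 gave nearly all the reads: the Hk2 to Hk1 count ratio was 0.0229 ± 0.00869 in the control (SD, n = 5) and between 0.0229 and 0.0292 on average in the 9 conditions. The Ldha to Ldhb ratio, which in tissues tracks the form of the lactate dehydrogenase tetramer, was 3.75 ± 0.366 in LP TTX and 2.80 ± 0.149 in LP TTX/NMDA, without overlap and lower in 5 of 5 preparations. In the SP it was 3.89 ± 0.746 and 3.21 ± 0.299, again lower in 5 of 5 but with overlap. The Slc2a1 to Slc2a3 ratio was 0.104 ± 0.0212 in the control and 0.118 ± 0.0143 after 2 h Bic, with overlap. It was 0.111 ± 0.0172 in LP TTX and 0.160 ± 0.0251 in LP TTX/NMDA, higher in 5 of 5 preparations without overlap. The Pfkp to Pfkm ratio was 1.19 ± 0.0972 and 1.04 ± 0.0920 in these groups, lower in 5 of 5 with overlap. These ratios were not tested, and they are ratios of reads, not of molecules.

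**Figure D4:**
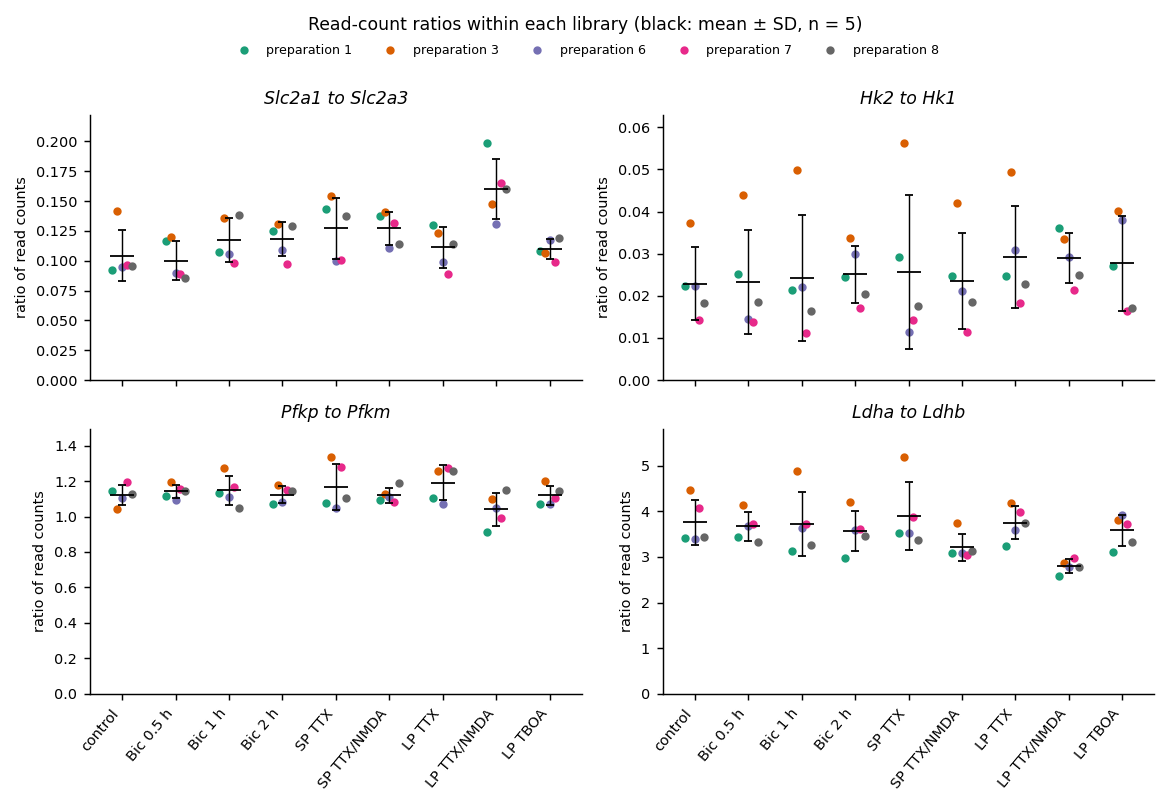
Ratios of read counts within each library (y axes, linear, starting at 0) for 4 pairs of isozymes or transporters in the 9 conditions (x axis), with 1 point per library coloured by culture preparation and black bars for the mean ± SD of 5. In LP TTX/NMDA, Ldha to Ldhb falls to a mean of 2.80 and Slc2a1 to Slc2a3 rises to 0.160.

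Several members differed between preparations in a way that recurred across conditions. Ldha was lowest in preparation 8 in 9 of 9 conditions and highest in preparation 3 in 7. Hk2 was highest in preparation 3 in 8 of 9, and ranged over all libraries from 5.78 to 29.7 CPM. Preparation 8 was also the lowest for Hk1, Pfkfb3, Ldhb and Pdk1 in 8 of 9 conditions each. The condition means of Ldha spanned a ratio of 1.13, the smallest of the 10, those of Pfkm 1.16, and those of Slc2a1 3.05, the largest.

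The 4 members with the widest range of condition means were compared with 13592 genes over the 9 condition means of log2 CPM, as a description. The genes most like Slc2a3 were Tsc22d2 (Pearson r = 0.997), Lrrc4 (0.996) and Frmd6 (0.995). Those most like Slc2a1 were Plat (0.991), Cdr2 (0.989) and Gadd45a (0.988). For Pfkfb3 they were Dlc1 (0.992), Lnx2 (0.992) and Lmna (0.991), and for Pdk1 5330416C01Rik (0.993), Pik3cb (0.991) and Megf9 (0.990). Among the members, the highest values were those of Slc2a3 with Hk2 (r = 0.983) and with Pfkfb3 (0.982), and Pdk1 and Ldhb ran in opposite directions (r = -0.933). The points share preparations, and the r values carry no test.

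The rest of glucose metabolism, 92 genes in 8 lists, were tested beside the 10 members. After 2 h Bic, 91 had reads and 6 were higher and 6 lower, against 4.24% and 4.78% of all genes tested. Of the 22 other glycolytic enzymes, 21 had reads and 0 passed the test, at a median log2 fold change of 0.08, beside 0.16 for the 10 members. Of the 9 other glucose transporters 0 passed, with 0 at an unadjusted p under 0.05. The largest change among those named was in a gene of lactate transport: Slc16a1 (the monocarboxylate transporter MCT1) was at 234 ± 21.4 against 48.7 ± 4.49 CPM (log2 fold change 2.25, SE 0.08, adjusted p = 2.83e-21), the only one of 7 genes for lactate and pyruvate transport to pass. Of the 10 genes of the pyruvate dehydrogenase complex and its regulators, the kinase Pdk3 was higher (0.37) and 3 were lower, among them the phosphatases Pdp1 (-0.38) and Pdp2 (-0.78). Among 16 regulators of oxygen and glucose sensing, Myc was higher (1.00) and Hif1a, the oxygen-regulated subunit of HIF-1, was lower (-0.25, adjusted p = 0.0315), as was the AMP-activated kinase subunit Prkaa1 (-0.88). Of 12 hypoxia-inducible genes outside glycolysis, 3 were higher, Vegfa (0.66), Ddit4 (0.66) and Kdm3a (0.29), and 0 lower. Of 8 pentose phosphate genes 1, Rpia, was lower, and of 8 glycogen genes 0 passed.

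**Figure D5:**
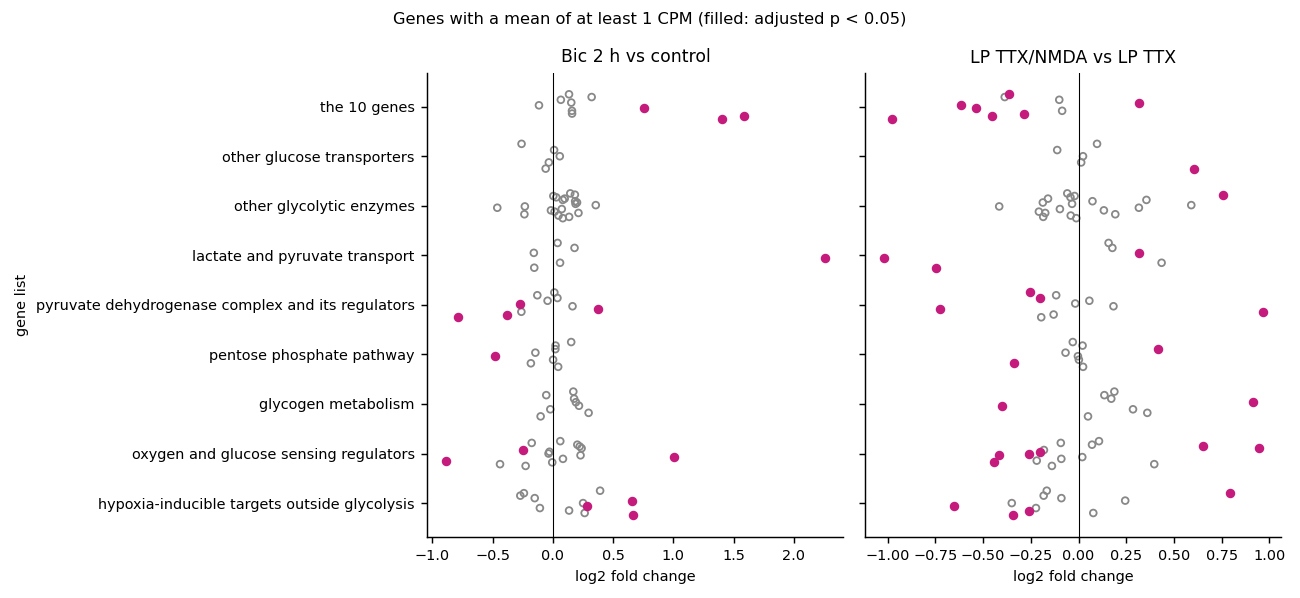
Log2 fold changes (x axes) of genes with a mean of at least 1 CPM in the 10 genes and 8 other lists (y axis), after 2 h Bic against control (left) and in the LP active effect (right), with filled points for an adjusted p under 0.05. The outlying point on the left is Slc16a1 at 2.25, and among the 10 genes 3 filled points lie above 0 on the left, while 6 lie below 0 and 1 above it on the right.

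In the LP active effect, 13 of the 92 genes were higher and 14 lower, against 11.6% and 11.8% of all genes tested. Slc16a1 was lower, as the glucose transporters were, at 113 ± 17.1 against 228 ± 15.2 CPM (log2 fold change -1.02, SE 0.08, adjusted p = 9.35e-11), and Slc16a7 (MCT2, the neuronal monocarboxylate transporter) was also lower (-0.75, adjusted p = 1.21e-05). Of the other 22 glycolytic enzymes, 2 were higher and 0 lower. One was Aldoc, an aldolase known from astrocytes, at 192 ± 70.4 against 113 ± 39.7 CPM (log2 fold change 0.76, SE 0.19, adjusted p = 0.00308). Of the 9 other glucose transporters 3 were higher, and 1 of them, Slc2a9, had a mean of at least 1 CPM. The kinases next to Pdk1 split, with Pdk3 lower (-0.73) and Pdk4, at a low level, higher (0.96). In the total effect 5 of the 22 enzymes were lower and 2 higher, against 11.1% and 11.7% of all genes. Pfkl, the liver-type phosphofructokinase, was lower (-0.35, adjusted p = 0.00523). In the SP active effect 3 of the 92 were lower and 2 higher, against 3.32% and 0.956% of all genes. Slc16a1 was lower there, at 49.1 ± 6.95 against 100.3 ± 13.4 CPM (log2 fold change -1.03, SE 0.09, adjusted p = 3.2e-10). With TBOA, 1 of the 92 passed against 2 h Bic, Vegfa as lower (-0.28, adjusted p = 0.0297), where 0.549% of all genes were lower. TBOA against TTX/NMDA gave 8 higher and 10 lower, against 7.99% and 8.6% of all genes.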

How the data were processed

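RNA from 45 libraries of primary hippocampal neurons was sequenced by the authors after poly-A enrichment and strand-specific library preparation. Per the submitters' processing notes, reads were handled with bcl2fastq 2.20.0.422, STAR 2.5.4b and featureCounts 1.6.5 on GRCm38. The authors deposited raw counts per gene on the library's strand, leaving out multi-mapped reads and those on more than 1 gene, and every per-sample column was matched to a library. From these counts, the libraries of 2 conditions were fitted with edgeR 4.0.16 (quasi-likelihood test, TMM scaling) over genes with at least 1 read, in R 4.3.3, and a gene was called at an adjusted p under 0.05 (Benjamini and Hochberg, over all genes tested). Levels are CPM with TMM factors over all 45 libraries. Alternatives were DESeq2 1.42.0 size factors and test, other filters on low counts, all libraries in 1 fit, each preparation left out, and preparation as a block. The labels give libraries of one preparation the same number, so the number pairs them. Over 13592 genes, deviations of same-numbered libraries from their group means correlated on average by 0.356 to 0.550 per comparison (lowest pair -0.198). Libraries of a preparation share their culture, so the main fit treats related libraries as independent. All 10 members were to be given in every comparison, in the text singly, by a count or by a range, and in the plot of log2 fold changes. From each other list, up to 3 called genes with a mean of at least 1 CPM were named by size of change. The members and lists were chosen with earlier results of these data known. Aldoa was matched to 1 of 2 gene models.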

Additional observations from a re-analysis of the deposited data

Results flagged for a closer look

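Of 90 groups of 5 libraries (10 genes in 9 conditions), 6 held a library whose CPM lay far from the other 4, where chance gives about 1 in 20. In the control, Slc2a1 in preparation 3 was at 29.7, with the others between 20.3 and 22.98. After 1 h Bic, Hk2 in preparation 3 was at 27.4, with the others between 6.45 and 12.4. Pfkp in preparation 3 was at 455 after 2 h Bic (others 407 to 421) and at 351 in LP TTX/NMDA (others 331 to 336). In preparation 8, Pfkfb3 was at 29.3 in SP TTX (others 39.6 to 41.9) and Pfkm at 313 in the control (others 337 to 346). Slc2a3 fell further with NMDA in the LP than in the SP, with a difference between the active effects of -0.62 on the log2 scale in the interaction test.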

How the results depend on the processing

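Over 12 alternatives, 1352 of 1440 values of a member in a comparison kept their direction where called and their side of the threshold, 21 lost the threshold, 67 gained it and 0 reversed. Of 33 calls, 26 held in every alternative run. The replicate block moved the counts most. With the block and a filter on low counts, the members called were 7 after 2 h Bic, 6 between 1 and 2 h, 4 in the SP active effect, 6 in the SP total effect, 5 in the LP passive effect and 5 in the difference between the active effects. With the block over all genes with a read, these counts were 6, 5, 4, 6, 4 and 5. In the same order, the genes this fit called higher and lower were 2440 and 2453 of 30929, and 1636 and 2000 of 30975. In the SP they were 1171 and 1932 of 32229, and 2063 and 2288 of 31414. For the last 2 they were 2537 and 2235 of 31944, and 1833 and 2193 of 35027. The block changed the other counts of members by no more than 1.5 times. DESeq2 called 5 members after 2 h Bic and 3 in the difference between the active effects. A filter on low counts gave 2 in that difference and 1 in the SP total effect, where no filter and a fit of all 45 libraries also gave 1. That fit gave 1 for glutamate spillover. Leaving out each preparation in turn gave 1 to 4 members in the SP active effect, 1 to 2 in the difference between the active effects, 4 to 7 for TBOA against TTX/NMDA, 6 to 9 in the LP total effect and 7 to 8 in the LP active effect. The SP active count was 2 without preparation 3 or 7 and 4 without 6 or 8, and the difference between the active effects gave 2 without 8. The cause of these changes was not tested. The fit of all 45 libraries was not run for the 2 differences between protocols. DESeq2-type size factors moved the log2 fold change of the median gene by at most 0.02. Hk2, the least abundant member with 114 to 1341 reads per library, had a wide spread between preparations.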
